A study of Mus musculus with 4 samples.

Results

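Gene desert peaks are the regions listed as enriched for H3K27me3 that lie far from any protein-coding gene. A peak was taken when its midpoint was at least 200 kb from the body of every protein-coding gene, on chromosomes 1 to 19 without 15. Of 25957 peaks in the series, 881 met this rule: 459 of 9866 in the list from control cells and 422 of 16091 in the list from irradiated cells. The rule used position alone and no measured value. H3K27me3, the trimethylation of lysine 27 on histone H3, was mapped by chromatin immunoprecipitation and sequencing in GL261, an established mouse glioblastoma line, with cells labelled Con (control) and IR, taken to mean irradiated as the series title says. No dose or time after radiation is stated in the labels, and they name no strain, clone or transgene. Each condition had 1 H3K27me3 library and 1 input library, and the input libraries were not analysed by themselves. With 1 library a group there was no test between conditions, and every interval below covers counting error only.

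Polycomb repressive complex 2 writes H3K27me3, and the mark is best known from CpG-rich promoters of silent developmental genes, from which it can spread over broad domains. Gene deserts are of several kinds: some hold distant enhancers of the developmental genes at their edges, and others are compact, late-replicating chromatin at the nuclear lamina. Deserts by the present rule may still hold genes for long non-coding RNAs (lncRNAs), small RNAs or immunoglobulin segments, since protein-coding genes alone ended them. No defining marker of glial cells could be checked in lists of peaks.

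The annotation of these deserts held 843 non-coding genes with a promoter window in RefSeq (GRCm38.p6, 250 bases before to 50 after the start). Of these, 5 had a control peak over the window (0.593%) and 5 an irradiated peak (0.593%); among 8123 non-coding genes with a promoter under 200 kb from a coding gene the shares were 0.406% and 0.640%. The 4 promoters below are shown because they lie in deserts described later and had the most bases under peaks there. They are examples and do not stand for the DNA under desert peaks in general. All 4 belong to lncRNA genes. They are Gm31631 (chr6:50908928-50909227, minus strand, between Npvf and Gm38821), Gm42243 (chr5:28840406-28840705, plus strand, between Shh and Rnf32), Gm34025 (chr8:87146286-87146585, minus strand, between N4bp1 and Cbln1) and Gm40725 (chr10:83971359-83971658, plus strand, between 1500009L16Rik and Nuak1). They are written 5′ to 3′ on the strand of the gene, with the bases inside a peak in capitals.
Gm31631: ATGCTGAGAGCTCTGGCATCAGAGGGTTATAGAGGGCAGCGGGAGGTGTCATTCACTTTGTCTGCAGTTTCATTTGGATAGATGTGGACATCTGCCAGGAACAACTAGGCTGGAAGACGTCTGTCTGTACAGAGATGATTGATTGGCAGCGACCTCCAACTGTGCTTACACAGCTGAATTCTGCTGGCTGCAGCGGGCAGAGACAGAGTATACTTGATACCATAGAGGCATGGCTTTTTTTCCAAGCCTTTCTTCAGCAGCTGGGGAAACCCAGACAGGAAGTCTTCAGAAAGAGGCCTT
Gm42243: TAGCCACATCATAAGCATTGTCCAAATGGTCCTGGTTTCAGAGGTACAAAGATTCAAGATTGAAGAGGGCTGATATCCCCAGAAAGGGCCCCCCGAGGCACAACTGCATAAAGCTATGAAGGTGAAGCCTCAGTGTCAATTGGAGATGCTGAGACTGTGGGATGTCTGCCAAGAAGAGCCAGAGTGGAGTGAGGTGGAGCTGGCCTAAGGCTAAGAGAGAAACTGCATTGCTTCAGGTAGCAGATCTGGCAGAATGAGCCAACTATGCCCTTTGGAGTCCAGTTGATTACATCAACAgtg
Gm34025: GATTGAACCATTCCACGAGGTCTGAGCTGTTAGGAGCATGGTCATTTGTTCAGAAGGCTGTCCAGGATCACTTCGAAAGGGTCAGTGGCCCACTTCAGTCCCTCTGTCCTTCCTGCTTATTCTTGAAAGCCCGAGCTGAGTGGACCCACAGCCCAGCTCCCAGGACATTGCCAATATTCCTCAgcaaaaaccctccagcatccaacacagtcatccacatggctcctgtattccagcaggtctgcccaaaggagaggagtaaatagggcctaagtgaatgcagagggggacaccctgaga
Gm40725: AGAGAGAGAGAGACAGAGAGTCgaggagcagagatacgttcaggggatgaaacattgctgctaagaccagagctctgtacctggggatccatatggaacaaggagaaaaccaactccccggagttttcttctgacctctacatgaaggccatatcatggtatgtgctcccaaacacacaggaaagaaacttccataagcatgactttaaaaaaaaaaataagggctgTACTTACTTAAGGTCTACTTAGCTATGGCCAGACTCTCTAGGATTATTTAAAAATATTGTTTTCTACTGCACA

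The Gm31631 window lay whole (300 of 300 bases) inside a control peak of 1024 bp. At its summit that peak had 12 reads, 4.22-fold enrichment and a q of 0.115, and an irradiated peak overlapped it outside the window. Of the Gm42243 window, 297 bases lay in an irradiated peak with a fold of 4.49 (q 0.0536). The Gm34025 window was covered over 183 bases by an irradiated peak with a fold of 3.27 (q 0.446). At Gm40725 the peaks lay at opposite ends of the window, an irradiated one upstream (fold 4.16, q 0.0536) and a control one downstream (fold 3.29, q 0.831). Together they covered 95 of its 300 bases. The fold, p and q of a peak are the authors' own values. The letters CG, which read the same on both strands, occurred 4 times in the Gm31631 window, 1 time in Gm42243 and 3 times each in Gm34025 and Gm40725. Of all 32851 promoter windows in the table, 68.6% held at least 4 of them, 94.6% at least 1 and 76.7% at least 3, with a median of 7. Non-coding promoters in deserts had a median of 2, and the 4 windows shown held 1 to 4. These counts are of whole windows, not of the bases under peaks. Windows of Gm34113, in the same desert as Gm40725, held 7 and were covered by an irradiated peak over 22 or 68 bases; they are not printed because the peak covered so little of them.

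Deserts held a smaller share of the peaks than of the length. On the 18 chromosomes, 705 gaps between coding genes were long enough to hold a desert peak, and their desert part summed to 454 Mb, 19.5% of the span from the first to the last coding gene. No length was taken off for bases where reads cannot be placed. They held 6.35% of the control peaks of these chromosomes (95% exact interval 5.80 to 6.94) and 3.28% of the irradiated peaks (2.98 to 3.61). Deserts held 459 control and 422 irradiated peaks, a ratio of 0.919 (0.804 to 1.05). On the same chromosomes, peaks nearer than 200 kb to a coding gene numbered 6768 and 12427, a ratio of 1.84 (1.78 to 1.89). The intervals of both ratios did not overlap. Without chromosome 16 the desert ratio was 1.013 (0.877 to 1.17). Without peaks over a raised background, described below, the ratios were 0.927 in deserts and 1.58 near genes. The desert ratio was 2.05 (1.20 to 3.58) when q was limited to 0.05, against 4.93 near genes. With the irradiated list cut to the number of peaks in the control list, by p, it was 0.549, against 1.08.

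The ratio was lower in each further class of distance. It was 2.14 (2.03 to 2.25) inside coding genes, 1.77 within 50 kb of them, 1.60 from 50 to 100 kb and 1.41 (1.27 to 1.56) from 100 to 200 kb. Within deserts it was 1.26 (1.05 to 1.5) from 200 to 300 kb, 0.737 (0.564 to 0.960) from 300 to 500 kb and 0.379 (0.246 to 0.572) beyond 500 kb. The last class held 87 control and 33 irradiated peaks. Outside coding genes, density was lower in each further class in both lists. Control peaks went from 1.95 per Mb at 200 to 300 kb to 0.428 per Mb beyond 500 kb. Irradiated peaks went from 2.45 to 0.162 per Mb. Inside genes the densities were 2.37 and 5.06 per Mb, below the 5.43 and 9.63 per Mb within 50 kb of them. Without chromosome 16, which was left out after the data were seen, the ratios in the 3 desert classes were 1.31, 0.760 and 0.542.

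The order of the classes depended on peak strength. Among peaks with a −log10 p of at least 5, the ratio was 5.47 (3.13 to 10.2) at 200 to 300 kb, within the range of 4.83 to 6.59 found in the classes nearer to genes. It was 4.00 (1.71 to 10.8) at 300 to 500 kb, and beyond 500 kb it was 0.7 (0.226 to 2.04), from 10 control and 7 irradiated peaks. At this p, 35 control and 119 irradiated desert peaks were left, a ratio of 3.40 (2.32 to 5.11) against 5.41 (4.94 to 5.92) nearer to genes. Thus among stronger peaks the irradiated list was the longer one in deserts too, and by a smaller ratio than near genes. Lists that differ in the depth of their libraries reach different numbers of weak peaks: the desert peaks with the fewest reads had 7 in control and 8 in irradiated cells. Whether depth shaped the ratios was not tested.

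**Figure D1:**
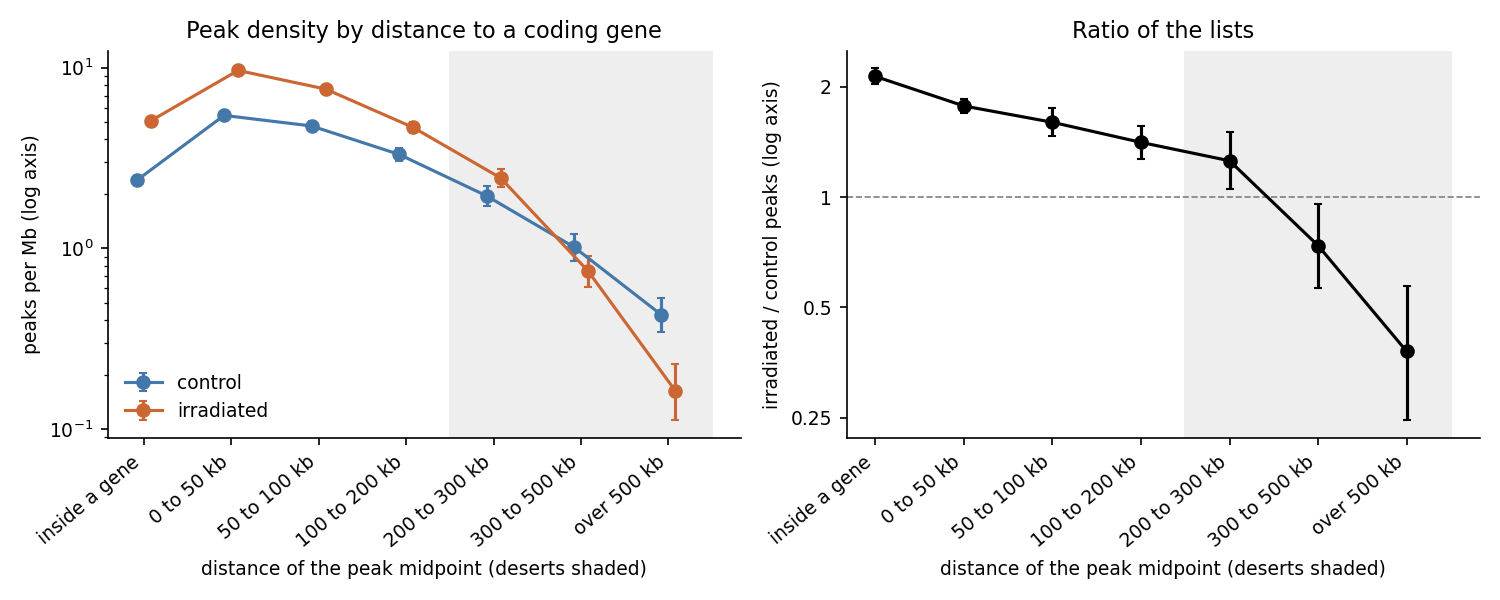
Peaks per Mb (left, log axis) and the ratio of irradiated to control peaks (right, log axis) in classes of distance from the peak midpoint to the nearest coding gene, on 18 chromosomes; points are counts, bars exact 95% counting intervals, and deserts are shaded. The ratio goes from 2.14 inside genes to 0.379 beyond 500 kb and passes 1 between 300 kb and the class before it.

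The peaks just inside and just outside the 200 kb boundary were as follows. From 190 to 200 kb there were 27 control and 42 irradiated peaks, with median widths of 364 and 309.5 bp. From 200 to 210 kb there were 31 and 39, with median widths of 298 and 348 bp.

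Desert peaks were spread unevenly over the chromosomes. Chromosome 16 held the most control ones, 79 (17.2%), against 37 irradiated ones (8.77%). Chromosome 4 held the most irradiated ones, 70 (16.6%), against 53 in control. Chromosome 11 followed with 60 and 53, chromosome 18 with 50 and 44 and chromosome 6 with 45 and 39. Chromosome 19 had none in either list, with 6.92 Mb of desert, and chromosome 17 had 2 and 1. Per Mb of desert, the control density ran from 0.127 on chromosome 17 to 3.59 on chromosome 16, and the irradiated density from 0.0635 on chromosome 17 to 2.68 on chromosome 11.

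Chromosome 6, which is rich in peaks near genes, was less so in deserts. It held 17.8% of the nearer control peaks and 9.80% of the desert ones, and 15.6% and 9.24% in the irradiated list. Chromosome 16 went the other way, with 4.03% of the nearer control peaks. Its surplus lay from 45 to 90 Mb, where deserts held 45 control peaks and 1 irradiated peak. Below 45 Mb the numbers were 34 and 36. From 45 to 90 Mb the lack of irradiated peaks was not limited to deserts. For the control desert peak at 63137353 to 63137636, the nearest irradiated peak, in a desert or near a gene, was 16506 kb away.

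In 16 of the 17 chromosomes with desert peaks, irradiated peaks per control peak were fewer in deserts than nearer to genes. Chromosome 7 was the exception, with 12 control and 27 irradiated desert peaks, a ratio of 2.25 (1.10 to 4.88) against 2.17 (1.87 to 2.53). On chromosome 14 both ratios were close, at 1.20 and 1.21. The intervals of desert and nearer ratios were apart on chromosomes 3, 6, 11, 12, 16 and 18. On the other chromosomes with desert peaks they overlapped, as on chromosome 1 (0.512 to 2.63 against 1.57 to 2.06). On chromosome 11 the desert ratio was 0.883 (0.599 to 1.3) against 2.44 (2.25 to 2.65) near genes, and on chromosome 18 it was 0.880 (0.573 to 1.35) against 1.97 (1.75 to 2.22). Had each chromosome kept its ratio of nearer peaks, its control desert peaks would have been matched by 812 irradiated ones in all, in place of 422. The difference between deserts and nearer peaks was thus also present in the sum when each chromosome was set against itself, though not beyond counting error on each chromosome.

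**Figure D2:**
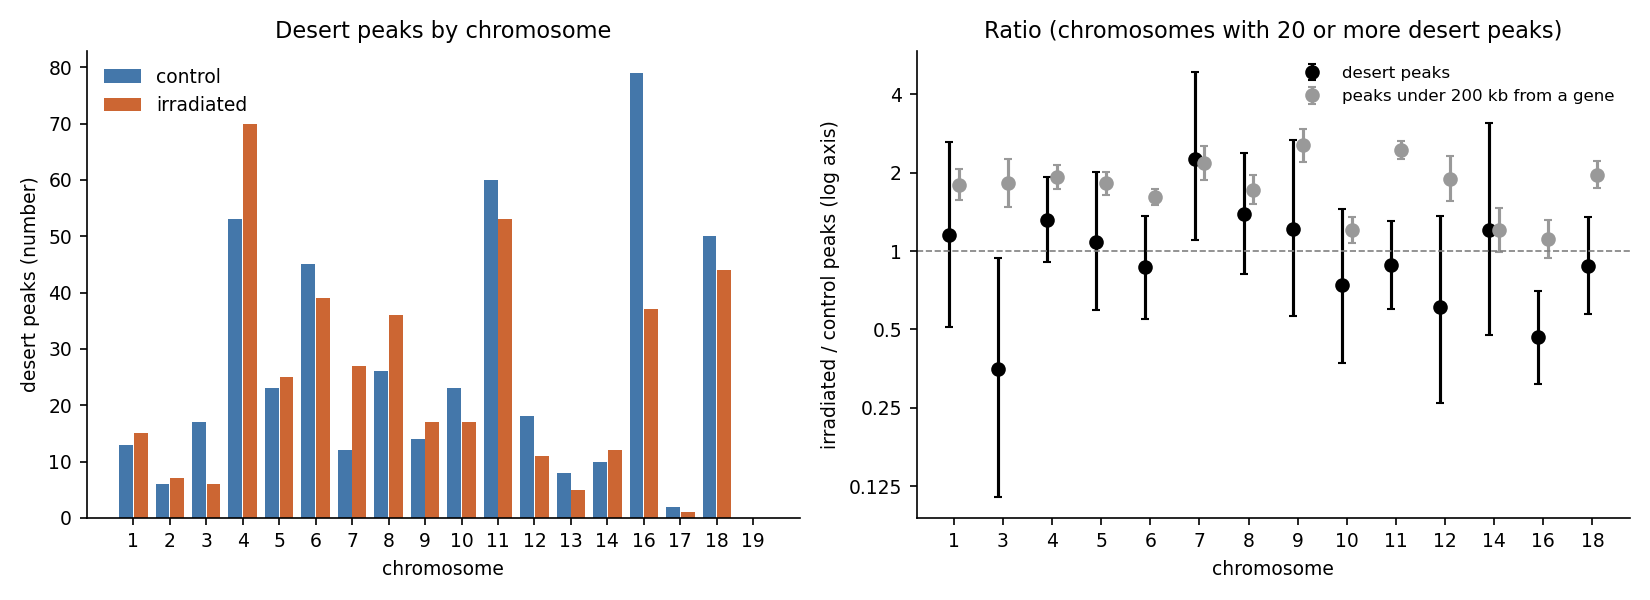
Number of desert peaks per chromosome in the control and irradiated lists (left), and ratio of irradiated to control peaks (right, log axis) for desert peaks and for peaks under 200 kb from a coding gene, on chromosomes with 20 or more desert peaks; bars are 95% counting intervals. Control exceeds irradiated most on chromosome 16 (79 against 37), and the black points lie below the grey ones on 13 of the 14 chromosomes shown.

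Desert peaks were narrow in both lists. Their median width was 328 bp in control (quartiles 284 and 409.5) and 329.5 bp in irradiated cells (278 and 424), against 351 and 358 bp nearer to genes. The smallest widths, 284 and 270 bp, were shared by 31.4% of control and 22.0% of irradiated desert peaks, against 24.9% and 17.6% of the nearer ones. Wide peaks were few: 3 control peaks (0.654%) and 4 irradiated peaks (0.948%) reached 800 bp, compared with 2.35% and 4.24% near genes. The widest control peaks measured 1026 bp and 1024 bp, both in the desert between Npvf and Gm38821 on chromosome 6, and 916 bp in the desert beside Grin2a; the fourth measured 767 bp, between Spaca1 and Akirin2 on chromosome 4. The widest irradiated peak measured 1655 bp, between Plpp3 and Usp24 on chromosome 4 (106004764 to 106006418). It was followed by 1208 bp between Eipr1 and Myt1l, 1001 bp between Smad2 and Skor2, and 910 bp between Ebf1 and Clint1. None of these 4 irradiated peaks overlapped a control peak. Only 6.64% of irradiated desert peaks and 9.83% of all irradiated peaks of these chromosomes did, so this does not set the wide peaks apart.

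Desert peaks were close to the others of their list in fold and reads, and control ones had somewhat weaker p and q. The median fold was 3.29 in control deserts and 3.37 near genes, and 3.82 and 3.60 in the irradiated list. The median number of ChIP reads at the summit, recovered from fold and p, was 9 for desert and nearer control peaks, and 10 against 11 in the irradiated list. The median −log10 p was 3.23 in control deserts and 3.42 near genes, and 4.03 for both in the irradiated list. A q of 1 was given to 44.0% of control desert peaks (39.4 to 48.7) and to 37.7% of the nearer ones (36.5 to 38.9), and to 0 irradiated peaks of these chromosomes. A q of at most 0.05 was reached by 22 control desert peaks (4.79%, 3.03 to 7.17), where 4.75% of all control peaks of these chromosomes did. In the irradiated list 45 desert peaks reached it (10.7%, 7.89 to 14.0), where 12.7% of all did. The shares with a q of at most 0.05 differ from the background by less than their counting error. The background under the peaks, recovered from fold and p, was lower in deserts: 7.19% of control and 6.40% of irradiated desert peaks had a background of at least 1.5 times the lowest, against 13.0% and 25.1% near genes.

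Few desert peaks were found at the same place in both lists. Of the control desert peaks, 27 (5.88%, 3.91 to 8.44) met an irradiated peak over 1 bp or more, while 17.2% of all control peaks of these chromosomes did and 18% (17.1 to 18.9) of the nearer ones. Of the irradiated desert peaks, 28 (6.64%, 4.45 to 9.45) overlapped a control peak, against 9.83% of all and 9.94% (9.42 to 10.5) of the nearer ones. For control peaks the intervals of desert and nearer peaks were apart, and for irradiated peaks they just met. At the shares of nearer peaks on each chromosome, 76.9 control and 41.2 irradiated desert peaks would have been shared. At the shares of nearer peaks of like p, the numbers would have been 81.7 and 44.2. These numbers take no account of the lower density of peaks in deserts. With the lists cut at a q of 0.05, or deserts taken from 500 kb or from genes of any type, the irradiated desert share was the higher one.

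The same held when overlap was relaxed. An irradiated peak lay within 10 kb of 28.8% of control desert peaks, against 56.0% near genes, and within 100 kb of 55.3% against 83.9%. The median distance from a control desert peak to the nearest irradiated peak was 66378 bp, against 6862.5 bp for nearer peaks. Seen from the irradiated list it was 24684 against 15377 bp. Irradiated peaks were also sparser in deserts, at 0.162 to 2.45 per Mb in the 3 desert classes against 4.67 to 9.63 per Mb in the nearer ones. The part of this lower density in the distances and in the sharing was not tested. Sharing was lowest at 300 to 500 kb, where 2 of 137 control peaks (1.46%, 0.177 to 5.17) met an irradiated one. Beyond 500 kb, 6 of 87 control and 6 of 33 irradiated peaks were shared, with 3 of the pairs in the immunoglobulin kappa locus described below.

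**Figure D3:**
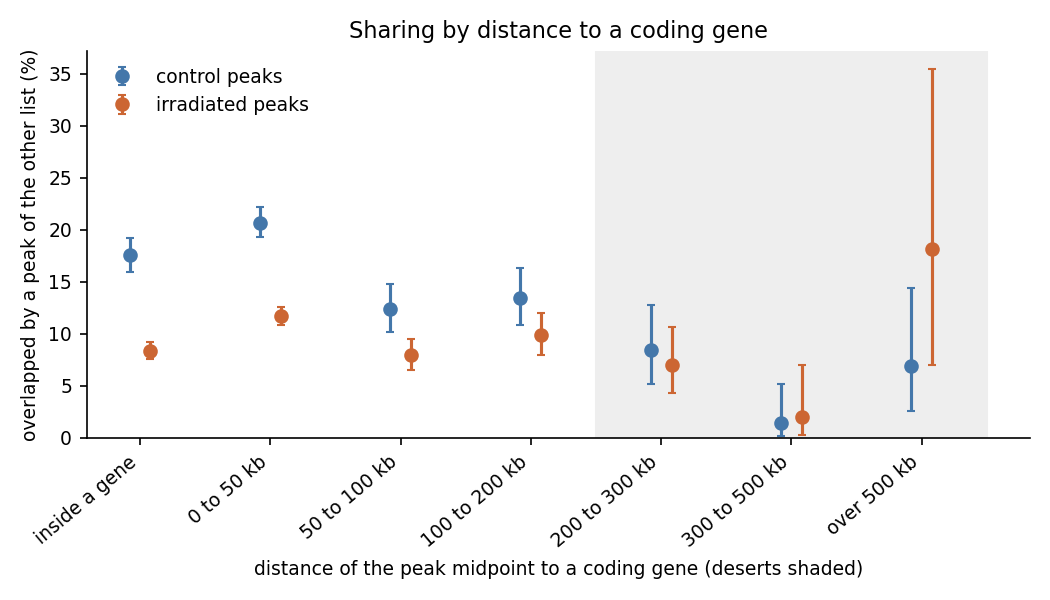
Percent of peaks overlapped by at least 1 bp by a peak of the other list, by distance to the nearest coding gene, on 18 chromosomes; points are shares, bars exact 95% intervals, and deserts are shaded. Control shares go from 20.7% within 50 kb of a gene to 1.46% at 300 to 500 kb, and the class beyond 500 kb rests on 87 control and 33 irradiated peaks.

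The 27 overlapping pairs lay in 16 deserts, with a median overlap of 281 bp, and in 17 of them the irradiated fold was the higher one. Those folds come from lists that were scaled separately. In 6 pairs both q were at most 0.05, and 5 of these had a background of at least 1.5 times the lowest in both lists. The sixth lay on chromosome 14 between the predicted genes Gm41099 and Gm2244, inside the lncRNA gene Gm33022. Its control peak (19302705 to 19303074) had a fold of 5.15 (q 0.00382), and its irradiated peak (19302775 to 19303129) a fold of 5.79 (q 0.00171), over backgrounds of 1.00 and 0.704 scaled reads. In the next pairs at least 1 of both q was above 0.05. One such pair lay at Gm31631 (folds 4.22 and 3.82), and another between Mn1 and Cryba4 on chromosome 5, with folds of 4.36 and 3.46.

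The strongest shared pair lay in Snhg14, the long host transcript of imprinted small nucleolar RNA (snoRNA) repeats in the Prader-Willi region of chromosome 7. The gap between Ube3a and Snurf held 3 control and 4 irradiated peaks in Snhg14. Ube3a encodes a ubiquitin ligase, and its paternal copy alone is silenced by this transcript in neurons. The control peak at 59769727 to 59770164 had 58 reads at a fold of 6.16 (q 8.43e-14). The irradiated peak at 59769696 to 59770189 had 73 reads at a fold of 13.9 (q 1.67e-32, the lowest of all desert peaks). The second pair there had folds of 4.13 and 6.48. A further irradiated peak at 59768494 to 59768910 had a fold of 4.57 (q 9.26e-09). The 3 control peaks and these 3 irradiated peaks lay in the spacers of the array, 228 to 762 bp from the nearest snoRNA gene. The 6 snoRNA genes annotated around them repeat with a median spacing of 2527 bp. The background at the strongest pair was raised, 5.00 scaled reads in control and 1.97 in irradiated cells, against a lowest value of 0.918 and 0.704. The sources used here do not say how reads matching several repeat copies were placed.

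The other strong shared pairs lay in Igk, the immunoglobulin kappa light chain locus on chromosome 6, whose variable segments are not counted as protein-coding genes. Igk held the midpoints of 11 control and 3 irradiated desert peaks. The strongest control desert peak of all lay there, at 68245209 to 68245763, with 128 reads at a fold of 4.30 (q 2.08e-21), and the irradiated peak at 68245233 to 68245652 had 89 reads at a fold of 3.74 (q 1.37e-10). Further pairs within 4 kb of it had folds of 3.53 and 2.76, and 3.25 and 2.34. The background was 17.7 to 20.4 scaled reads at the control peaks and 12.4 to 13.1 at the irradiated ones, the highest at any shared desert pair. The part of this raised background in the values was not tested.

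Other peaks with a low q occurred in a single list. In control cells these were 73 reads over a background of 13.0 between Il7 and Stmn2 on chromosome 3 (8245819 to 8246458, fold 3.30, q 9.73e-08), a pair near the proximal end of chromosome 16 before Olfr161 (folds 5.68 and 5.91, q 8.82e-07 and 4.01e-06), and a further peak in Igk (68246559 to 68246856, q 2.36e-06). In irradiated cells the leading peak over the lowest background lay between Sec61b and Nr4a3, an orphan nuclear receptor gene, on chromosome 4. At 47822204 to 47822692 it had 20 reads and a 7.09-fold enrichment (q 1.12e-06), and the nearest control peak was 1.58 kb away. It was followed by the 1655-bp peak beside Usp24, with 18 reads and a fold of 6.44 (q 0.000173). A peak before Olfr161, at 3367615 to 3367901 of chromosome 16, had a fold of 5.76 (q 0.00033). Without the 9 control and 4 irradiated peaks that lay outside the first or last coding gene of a chromosome, the ratio of the lists in deserts was 0.929.

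As units, most deserts were empty. Of 705 deserts, 184 (26.1%) held a control peak, 144 (20.4%) an irradiated peak and 88 both, which is 47.8% of those with a control peak and 61.1% of those with an irradiated peak. In 465 deserts (66.0%) there was neither. A single control peak was held by 96 deserts and a single irradiated peak by 73. The 10 deserts with the most peaks made up 1.11% of the desert length and held 25.1% of the control and 30.6% of the irradiated desert peaks. Thus exact positions differed between the lists while part of the deserts recurred: 69.8% of the control and 79.4% of the irradiated peaks within gaps lay in a desert that held a peak of the other list. Across all 705 deserts the Spearman correlation of control with irradiated numbers was 0.472. Across the 240 deserts with a peak in either list it was 0.161.

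Short deserts were denser and longer ones poorer, the more so in the irradiated list. Gaps of 400 to 800 kb held 172 control and 224 irradiated peaks, a ratio of 1.3 (1.06 to 1.60), at 2.68 and 3.49 per Mb of desert. Gaps of 800 to 1600 kb held 176 and 159, a ratio of 0.903 (0.724 to 1.13). Gaps over 1600 kb held 102 and 35, a ratio of 0.343 (0.227 to 0.508), at 0.443 and 0.152 per Mb. Without chromosome 16 the ratio in the longest gaps was 0.486 (0.313 to 0.742).

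The desert with the most peaks lay on chromosome 16 between 1810013L24Rik and Grin2a, which encodes an NMDA receptor subunit. Its part of 309 kb (9058924 to 9367901) held 13 control and 27 irradiated peaks, of which 4 control peaks were shared. Its strongest irradiated peak (9148467 to 9148875) had a fold of 5.30 (q 0.0022), and its strongest control peak by fold (9212046 to 9212339) a fold of 4.40 (q 0.0823). The desert between Plpp3, a lipid phosphatase gene, and Usp24, a deubiquitinase gene, followed with 12 and 19 peaks. Between Shh, the Hedgehog ligand gene, and Rnf32 on chromosome 5 there were 6 control and 13 irradiated peaks, the strongest with folds of 3.75 and 4.81. Between Sec61b and Nr4a3 there were 6 and 14.

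Several dense deserts held like numbers in both lists. Between Ebf1, a B cell and neuronal transcription factor gene, and Clint1 on chromosome 11 there were 13 control and 11 irradiated peaks, and none was shared. The desert between Meis1, a homeobox gene of limb and blood development, and Spred2 on the same chromosome held 8 and 12, also with none shared; 4 of its irradiated and 0 of its control peaks had a q of at most 0.05. Between Npvf and Gm38821 on chromosome 6 there were 10 and 14, with 3 control peaks shared. Between 1500009L16Rik and Nuak1 on chromosome 10 there were 9 and 13, with 2 shared.

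The largest surplus of control peaks lay on chromosome 16 between Tmprss15, which encodes enteropeptidase, and Ncam2, which encodes a neural adhesion molecule. This desert of 1709.6 kb (79291097 to 81000697) held 25 control peaks and 1 irradiated peak, which overlapped a control peak. Its strongest control peak (79792528 to 79792864) had a fold of 5.77 (q 0.000454). The 200-kb margins on both sides of this desert had 0 peaks in either list. It lay in the part of chromosome 16 from 45 to 90 Mb, where irradiated peaks were also missing near genes over long stretches. Control surpluses followed between Mc2r and Tcf4, a neuronal transcription factor gene on chromosome 18 (13 and 5), between Rbfox1 and Tmem114 on chromosome 16 (10 and 5), and between Etnk1 and Sox5, an SRY-related factor gene on chromosome 6 (7 and 2). Without the desert between Tmprss15 and Ncam2 the ratio over all deserts was 0.970.

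The largest irradiated surplus was that beside Grin2a, 14 peaks. Surpluses of 8 peaks were found beside Nr4a3 and between N4bp1 and Cbln1, a cerebellar synapse organizer gene on chromosome 8. The latter held 8 irradiated peaks, with folds up to 4.49 and q of 0.0536 or more, and no control peak, although its margins held 9 control and 14 irradiated ones. Surpluses of 7 were found beside Shh and beside Usp24. With 8 peaks against 0 and 1 library a group, an absent mark and one below the calling threshold cannot be told apart.

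**Figure D4:**
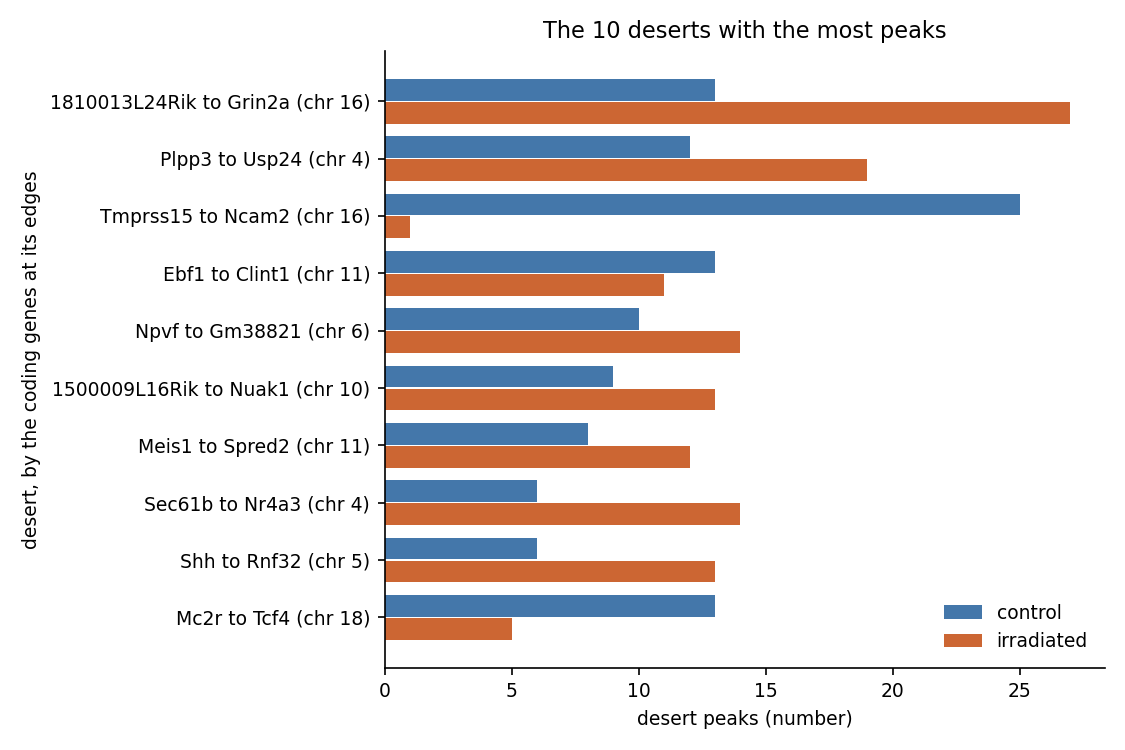
Number of control and irradiated desert peaks in the 10 deserts with the most peaks of both lists summed, named by the coding genes at their edges. The sums go from 40 beside Grin2a to 18 between Mc2r and Tcf4, and the desert between Tmprss15 and Ncam2 holds 25 control peaks against 1.

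**Figure D5:**
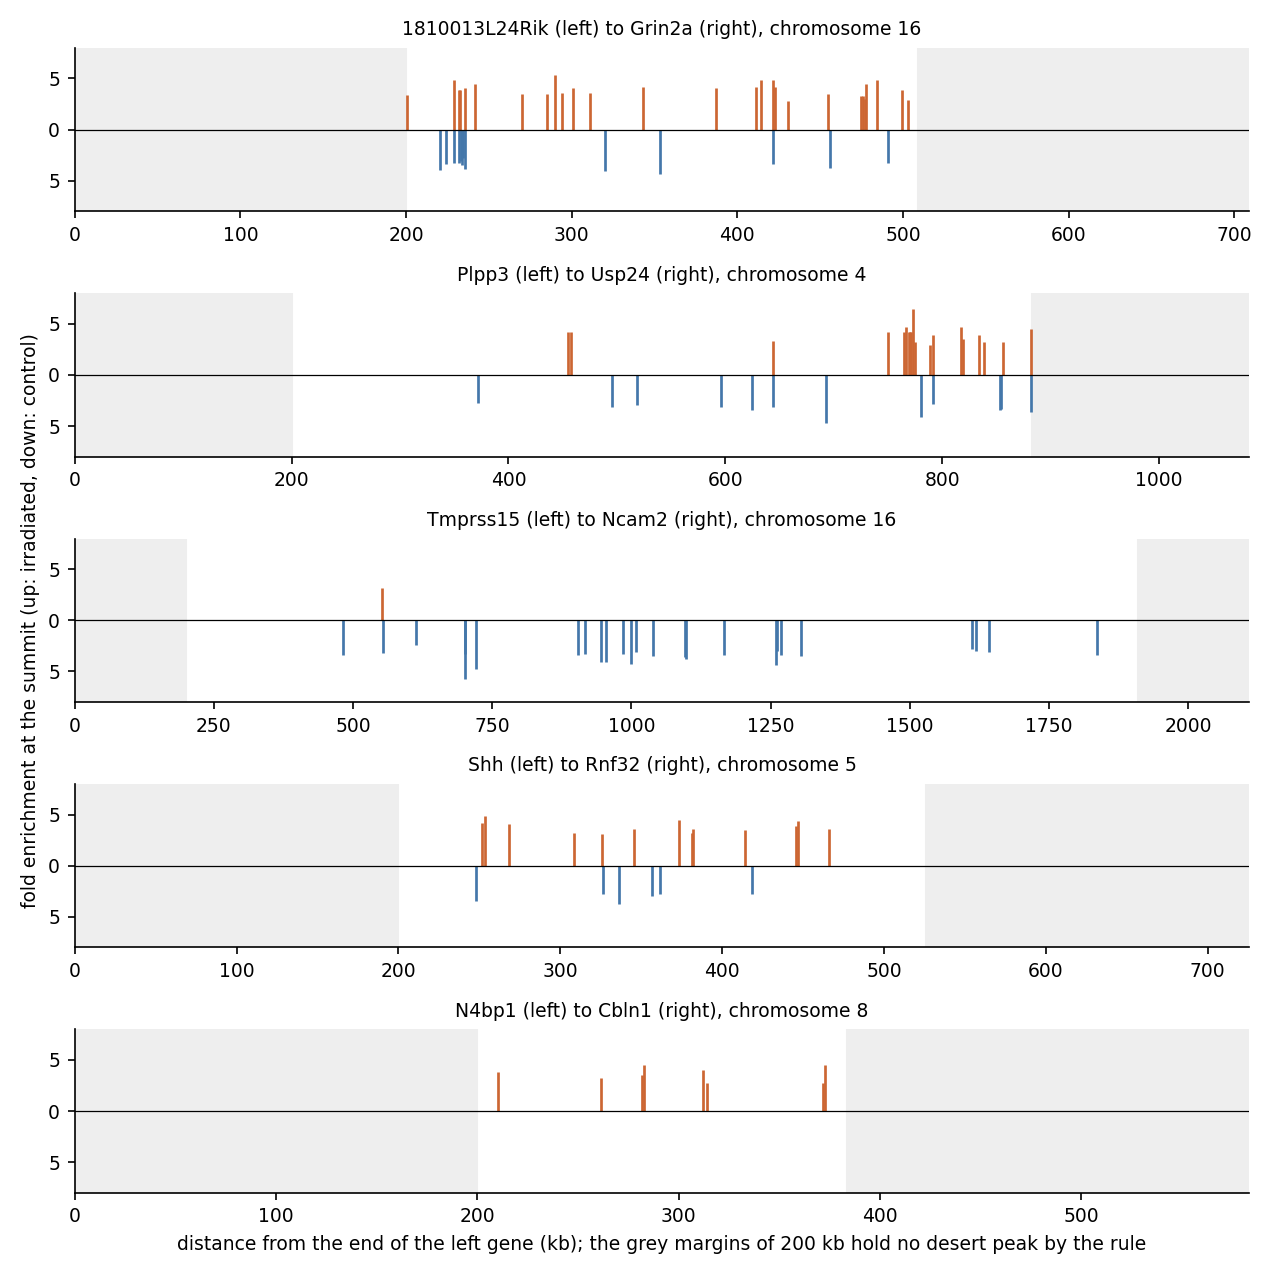
Desert peaks in 5 gaps, placed by distance from the end of the left gene in kb, with the height showing the authors' fold at the summit (irradiated upward, control downward); grey margins of 200 kb are outside the desert by the rule. In the gap between Plpp3 and Usp24 the peaks of both lists lie mostly in the right part, and the gap between Tmprss15 and Ncam2 holds control peaks almost alone.

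Desert peaks stood apart from each other more than peaks near genes. Another peak of the same list lay within 10 kb of 26.4% of control desert peaks (22.4 to 30.6) and of 39.8% of irradiated ones (35.1 to 44.7), against 42.6% and 63.0% near genes. The median distance to the nearest peak of the same list was 45176 bp in control and 17740 bp in irradiated deserts.

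Long non-coding RNA genes held a larger share of the desert peaks than of the desert length. They covered 9.07% of the desert bases and held the midpoint of 76 control peaks (16.6%, 13.3 to 20.3) and 80 irradiated peaks (19%, 15.3 to 23.0). Desert bases were weighted alike here, although peaks were denser in the parts of deserts nearer to coding genes. The part of this in the larger share was not tested. The lists carry no strand, and no transcript levels of these genes were analysed here. Those with the most peaks, after Snhg14, were Gm34184 on chromosome 10 and Gm46959 on chromosome 6, with 1 control and 5 irradiated peaks each, and Gm27246 in the N4bp1 desert, with 0 and 4. Of the other genes with 4 peaks, Gm30821 beside Mc2r had 3 control peaks and 1 irradiated peak, 5730522E02Rik had 2 and 2, and Gm31933 and Gm41418 had 1 and 3 each. Pseudogenes held 2 and 4 desert peaks.

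The genes at the edges of deserts were described by 4 lists of genes. Of all 1246 edge genes, 27.8% bounded a desert with a control peak and 22% one with an irradiated peak. Each desert counted for the genes at both its edges, such as Cdh8 and Cdh11. Edge genes are thus not independent, and the intervals below are too narrow. Among developmental regulators, 62 of 116 were edge genes, and 21 of these (33.9%, 22.3 to 47.0) bounded a desert with a control peak and 21 one with an irradiated peak. Ebf1 led with 13 control and 11 irradiated peaks on both sides together, followed by Meis1 with 10 and 13, Shh with 6 and 13, and Tcf4 with 13 and 5. Among synaptic adhesion and axon guidance genes, 18 of 51 edge genes (35.3%) had a control peak in their desert and 12 (23.5%) an irradiated one. Ncam2 had 28 and 1, the netrin receptor gene Dcc 8 and 6, the ephrin receptor gene Epha7 5 and 7, and the adhesion receptor gene Adgrl3 4 and 2.

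For neurotransmitter receptors and ion channels the numbers were 10 of 32 (31.3%, 16.1 to 50) in control and 4 of 32 (12.5%, 3.51 to 29.0) in irradiated cells. Grin2a had 13 and 27 peaks, the galanin receptor gene Galr1 4 and 6, the AMPA receptor subunit gene Gria1 4 and 0, and the potassium channel gene Kcnd2 3 and 0. Cadherins and protocadherins had 5 and 3 of 15, with Cdh8 (4 and 4), Cdh11 (2 and 2), Cdh5 (1 and 2) and Cdh2 (1 and 0). The intervals of the 4 lists included the share of all edge genes in both conditions, except for developmental regulators in irradiated cells, whose lower bound of 22.3% lay just above it.

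The peaks farthest from any coding gene had about as many reads as other desert peaks, whose medians were 9 and 10. In the control list they lay between Cdh2 and Dsc3 on chromosome 18 (1480 kb from the nearest gene), between Igfbp7 and Adgrl3 on chromosome 5 (1476 kb), between Otol1 and Sis on chromosome 3 (1283 kb) and between Alcam and Zpld1 on chromosome 16 (1173 kb), with 7 to 11 reads. In the irradiated list they lay between Celf4 and Pik3c3 on chromosome 18 (1401 and 839 kb), between 4931417E11Rik and Ctnna2 on chromosome 6 (1186 kb), between Lingo2 and 1700009N14Rik on chromosome 4 (1020 kb), between Bcl11a and Fancl on chromosome 11 (842 kb) and between Fat3 and Chordc1 on chromosome 9 (838 kb), with 9 or 10 reads. None of these 10 overlapped a peak of the other list. Of desert peaks in general, 5.88% of control and 6.64% of irradiated ones did. Among all peaks of these chromosomes the shares were 17.2% and 9.83%. With 10 peaks, the farthest ones cannot be told apart from other desert peaks in this.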

How the data were processed

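H3K27me3 peak lists of 1 control and 1 irradiated GL261 library were used, 10081 and 16770 deposited lines. Per the submitters' processing notes, BWA and deepTools were used with mm10; for the peak caller and its settings the notes were silent (not given in the sources used here). Lines giving further summits of an interval (215 and 679) were merged and the values at the highest summit kept. Each deposited line holds a ratio (fold enrichment) for the summit, and the deposited −log10 p and −log10 q are the authors' p-value and q-value per peak. The deposited score equals 10 times the −log10 p, rounded down. Library totals are unknown; reads at a summit and the background were recovered from fold and p under a Poisson model, for 100% of peaks, with more than 1 solution for 0.101% of control and 0.957% of irradiated peaks. The step was tested on data simulated under the same model, with fewer reads per peak than the strongest desert peaks had. That test cannot show whether the peak caller used this model. One read counted as 0.62 and 0.554 scaled reads.

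Gene positions are those of RefSeq on GRCm38.p6, the same build as mm10. Distance ran from the peak midpoint to the nearest of 21900 protein-coding gene bodies. Shares have exact (Clopper-Pearson) 95% intervals, ratios have intervals derived from the exact binomial share of irradiated peaks, and densities exact Poisson intervals. Peaks in clusters are not independent, so these intervals are too narrow as statements about sites. The sequences used were RefSeq's promoter windows alone. Python 3.11.15, pandas 2.3.3, NumPy 2.4.6 and SciPy 1.17.1 were used.

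Members and lists were chosen with earlier results of these data known. Named regions followed a rule: the 10 deserts with the most peaks, the 5 with the largest surplus of each list, the 8 peaks of lowest q per list and the 8 best pairs, the 4 widest and 6 farthest peaks per list, and 4 genes per gene list; N4bp1 tied for its rank. Values of 1 desert and of 2 far peaks that met this rule are not reported here. Of 296 list entries all matched a coding gene. Promoters shown and genes with the most lncRNA peaks were chosen after their values were seen.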

Additional observations from a re-analysis of the deposited data

How the results depend on the processing

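Of 14 alternatives, 3 of them chosen after seeing the data (without chromosome 16, without the desert between Tmprss15 and Ncam2, and without peaks over a raised background), all 14 gave a lower control share of overlapped peaks in deserts than near genes, and 11 a lower irradiated share. Of the 12 that can change the ratio of irradiated to control peaks, all gave a lower ratio in deserts than near genes, and 8 a desert ratio below 1. With deserts from 100 kb there were 1096 control and 1318 irradiated desert peaks (15.2% and 10.3% of peaks), a ratio of 1.20 and a control share overlapped of 10.3%. From 500 kb there were 88 and 34 (1.22% and 0.265%), a ratio of 0.386 and an irradiated share overlapped of 17.6%. At 200 kb from genes of any type there were 19 and 9 (0.263% and 0.0700%), a ratio of 0.474 and an irradiated share of 11.1%. With a q of at most 0.05 in both lists there were 22 and 45, a ratio of 2.05, 2.77% of irradiated peaks in deserts, overlapped shares of 27.3% and 13.3%, and a median control width of 358.5 bp. With a −log10 p of at least 5 there were 35 and 119, a ratio of 3.40, 5.76% and 3.70% of peaks in deserts, a control share of 17.1% and a median control width of 347 bp. Without chromosomes 6 and 11, 7.01% and 3.79% of peaks lay in deserts; without chromosome 16, 5.53% of control peaks did; without peaks over a raised background, 4.07% of irradiated peaks did. An overlap of 50% of both intervals gave shares of 3.05% and 3.32%, and a gap of up to 1000 bp 10.2% and 11.6%. With equal numbers of peaks 252 irradiated desert peaks were left, a ratio of 0.549. The causes were not tested. Library totals are unknown, and the median desert peak had 9 reads in control and 10 in irradiated cells at its summit. No paired analysis was possible because each group had 1 library.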
